A study of Sus scrofa with 24 samples.

Results

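Spleen circRNAs of Meishan pigs at 120 days after birth were compared with those at 28 and 35 days. The comparison used 9 of the 24 libraries of the series, with 3 pigs at 28d, 3 at 35d and 3 at 120d, chosen by the age in the sample labels. All 3000 circRNAs of the deposited count table entered it. The pigs were healthy animals of 1 Chinese indigenous breed, no treatment is named at any stage, and each library came from spleen tissue of 1 pig. The 28d and 35d pigs are called the 6 younger libraries, since the question was how the spleen of a grown pig differed from that of a piglet around 1 month of age. The interval from 35d to 120d was not sampled, so the age at which a value changed cannot be placed within it.

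A circRNA forms when the end of an exon is spliced back to the start of the same or an earlier exon, and the closed ring has no free ends for exonucleases to attack. Most circRNAs are made of exons of protein-coding genes, here called host genes, and they often build up in cells that seldom divide. The spleen filters blood, removes old red cells and holds T cells, B cells, plasma cells and macrophages, and in young pigs it still grows and is being populated by lymphocytes.

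Each value below rests on reads that cross the back-splice junction. Of the 3000 junctions, 2843 joined exon ends of 1 annotated gene on Sscrofa11.1, from 1671 host genes, and 612 host genes gave 2 or more circRNAs. The junctions that the results turn on are printed here as the circle reads across them, 5′ to 3′. The 15 capitals are the last bases before the back-splice, and the 15 lower case letters are the first bases after it.
circRNA_28982, inside YAF2, chr5:73473989-73481454, minus strand: TAACTCAAGTTACTGgtagctcctgattgt
circRNA_08751, NCOR1 exons 10 to 14, chr12:59319172-59323398, plus strand: AGAGGAAGAAACCAGgaacaaaaaatctgc
circRNA_24166, ALMS1 exons 18 to 22, chr3:69262709-69269649, minus strand: CCAGAGGTCTAAACGgtgacagactgtatt
circRNA_03546, GLIS3 exons 4 to 5, chr1:217786693-217794582, plus strand: CCCAATAAGTGTTCGgggctcttggctttg
circRNA_03547, GLIS3 exon 5, chr1:217793463-217794582, plus strand: CCCAATAAGTGTTCGgtcccttatttcccg
The GLIS3 pair carries the same 15 capitals, because both circles close from the end of exon 5 and differ in the exon they return to.

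At 120d more of the sequenced reads crossed a back-splice of the 3000 circRNAs than at 28d and 35d. The 3000 are a part of the circRNAs of the study, so levels, shares and numbers detected refer to these and not to every back-splice in the spleen. Per M clean reads (RPM), the 3 libraries of 28d held 420, 405 and 265 back-splice reads of the 3000 circRNAs, and those of 35d held 347, 524 and 511. The libraries of 120d held 762, 634 and 864, so that each lay above all 6 younger ones. The mean was 754 ± 115 at 120d (SD, n = 3) and 412 ± 98.3 in the younger pigs (SD, n = 6), a ratio of 1.83. An exact permutation test over the 84 arrangements of the group names gave p = 0.0238 (two-sided), the smallest p these groups allow. The ratio was 2.07 against 28d alone and 1.64 against 35d alone, and 3 pigs against 3 cannot go below an exact p of 0.1. At 180d, which is not part of this comparison, the mean was 469 ± 94.5 RPM (SD, n = 3). The 35d libraries had 461 ± 99.0 (SD, n = 3), so the level of 120d was not seen at 180d. Clean reads themselves numbered 98.45 to 112.1 M in the 28d libraries, 102.69 to 107.0 M in those of 35d and 100.14 to 115.29 M in those of 120d.

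The libraries also differed in the share of bases kept after trimming (valid bases), which was under 0.96 in 0 libraries of 28d, 2 of 35d and 2 of 120d. Among the libraries of at least 0.96, 120d was represented by 1 library with 762 RPM, against a mean of 359 in 4 younger ones. Among those under 0.96 the mean was 749 at 120d and 518 at 35d, a ratio of 1.45 (n = 2 and 2, exact permutation p = 0.333, the smallest p that 2 against 2 allows). The part of valid bases in the higher level at 120d was not tested beyond these values. The methods describe a digestion of linear RNA with RNase R that the sample labels do not name. What a back-splice read per clean read measures, and so the ratio of 1.83, depends on that step, and its completeness in each library was not measured. In bulk tissue, fewer cells of a type and less RNA per cell cannot be told apart, and the same holds for more of either.

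**Figure D1:**
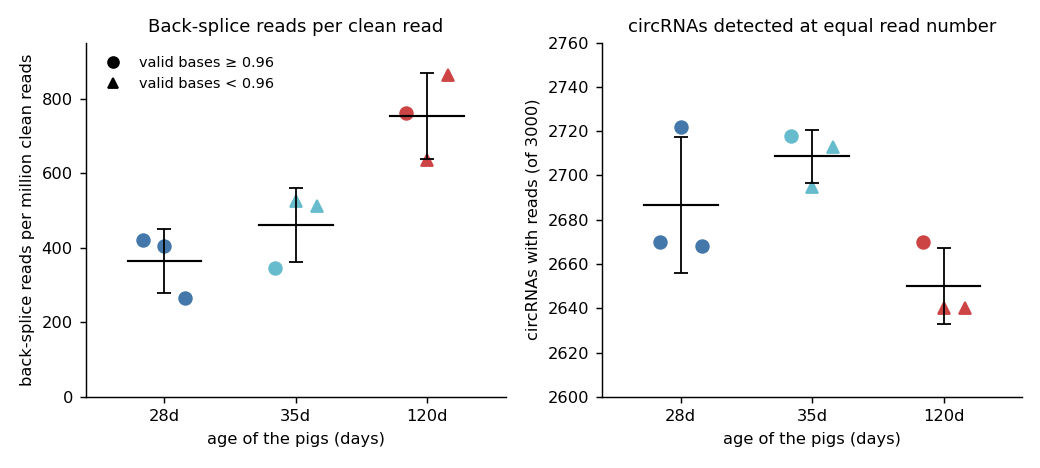
Back-splice reads of the 3000 circRNAs per M clean reads (left y axis) and the number of circRNAs with reads after every library was thinned to 29749 reads and counts of 1 were set to 0 (right y axis, which does not start at 0) at 28d, 35d and 120d. Points are pigs, with triangles for libraries whose share of valid bases was under 0.96, lines mark the means and error bars the SD (n = 3); the 3 points of 120d lie above the 6 others on the left.

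The gain was spread over nearly the whole table. With clean reads as the depth of each library, 2810 of 3000 circRNAs had a log2 fold change above 0, and the median was 0.85, which is a 1.81-fold level. Past an adjusted p of 0.05 and a fold of 2 (edgeR's quasi-likelihood test, Benjamini-Hochberg over 3000 circRNAs), 437 circRNAs rose per clean read, which is 14.6% of the table. In the same test 1 circRNA, circRNA_24166 of ALMS1, fell, or 0.0333%. These calls carry the same difference between libraries as the RPM values, so they are not separate evidence of it. The 437 dropped to 96 without 120d replicate 3, to 183 without 120d replicate 1, to 242 without 28d replicate 3 and to 243 without 35d replicate 1. Within the libraries of at least 0.96 valid bases 94 rose per clean read. Within those under 0.96, where 35d is the younger stage, 0 of 3000 passed by edgeR (367 at an unadjusted p under 0.05), and DESeq2 was not run there.

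The back-splice reads were shared out among circRNAs in nearly the same way at both ages. The 100 most abundant circRNAs took 27.9 to 28.3% of the reads of the table at 120d and 25.9 to 28.4% in the younger libraries. Of the 100 most abundant at 120d, 86 were among the 100 most abundant in the younger pigs. SLTM circRNA_01598 came first at 120d, with 477 normalized counts against 406 in the younger pigs. circRNA_24032, over several annotated genes, was first in the younger pigs and next after SLTM at 120d, with a mean of 468 against 665 and a range of 239 to 1070 among the younger libraries. PHF21A circRNA_20634 had 367 against 272, and circRNA_21182 of the adhesion GPCR gene LOC100516957 had 350 against 418. Normalized counts are counts brought to a common library size by edgeR's trimmed mean method (TMM). Every fold change on that scale is a change in a circRNA's share of the back-splice reads, and lies 0.785 lower in log2, at the median circRNA, than the change per clean read.

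On the TMM scale 2 of 3000 circRNAs passed an adjusted p of 0.05 and a fold of 2, or 0.0667%, with 1 higher and 1 lower at 120d. Another, from NCOR1, passed the adjusted p at a fold below 2, so that 0.1% of the table passed the adjusted p. An unadjusted p under 0.05 was met by 180 circRNAs, or 6.0%. The median log2 fold change was 0.07, and the interquartile range was -0.28 to 0.38. Of the 1033 circRNAs with a mean of at least 10 normalized counts over the 9 libraries, 97.3% had a fold below 2. The 95% confidence interval lay wholly within a fold of 2 for 609 of these 1033, and for 661 of all 3000. For the other 2339 circRNAs the interval reached a fold of 2, so a change of that size could not be told from none for most of them at this depth.

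**Figure D2:**
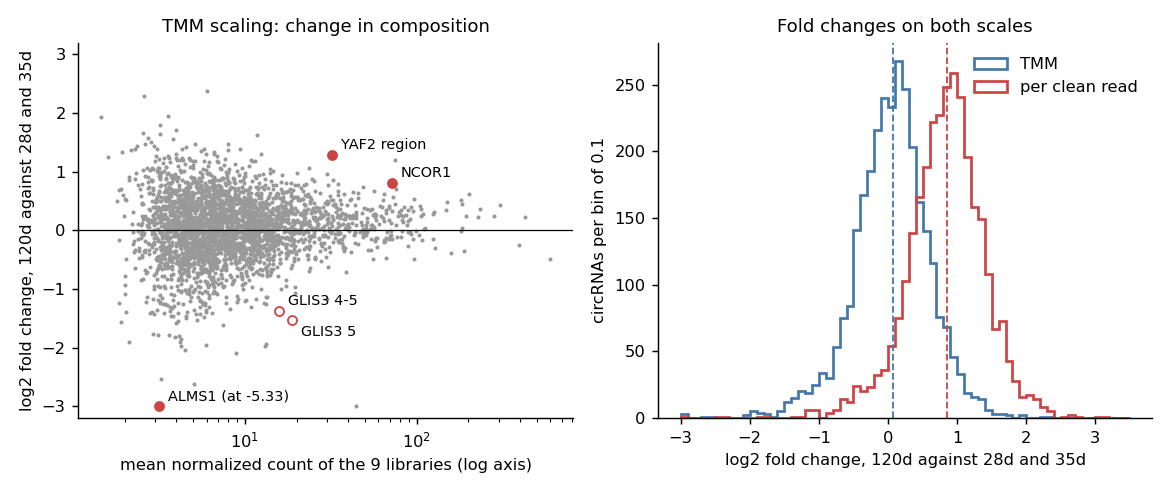
Log2 fold change of each circRNA, 120d against 28d and 35d, on the TMM scale against its mean normalized count (left, log x axis; filled red points passed an adjusted p of 0.05, open red points did not, and the 2 circRNAs under -3 are drawn at -3), and the distribution of fold changes with TMM and per clean read (right; dashed lines are medians). The whole distribution lies around 0.07 with TMM and around 0.85 per clean read.

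YAF2 held the clearest rise. The gene encodes a partner of the zinc finger protein YY1 and belongs to Polycomb repressive complexes. circRNA_28982 lies inside YAF2 on the gene's own strand, with 1 of its ends at an annotated exon end, so its exon content is not given here. It had 25, 16.7 and 26.7 normalized counts in the 28d pigs and 18.4, 17.7 and 25.3 in the 35d pigs. At 120d it had 50.8, 52.8 and 55.2. All 3 grown pigs stood at about the same level, above every younger one. The mean was 52.9 ± 2.19 (SD, n = 3) against 21.6 ± 4.47 (SD, n = 6), and the log2 fold change was 1.29 (standard error 0.25, 95% interval 0.80 to 1.79, edgeR adjusted p = 0.00655). Per clean read the log2 fold change was 2.1. The adjusted p was 0.0585 without 120d replicate 1 and 0.0844 on counts thinned to the smallest library. It was 0.922 among the libraries of at least 0.96 valid bases, where 1 library of 120d is left, with a log2 fold change of 1.32. Before 28d the stage means ran from 13.3 normalized counts (7d) to 22.2 (21d), and the pigs of 180d had 35.5 ± 14.2 (SD, n = 3). In pigs that share no library with this comparison, 180d stood above 14d and 21d by 0.97 in log2 (edgeR adjusted p = 0.0209), where 2.4% of circRNAs were higher and 3.23% lower past the adjusted p.

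NCOR1, a co-repressor that links nuclear receptors to histone deacetylase HDAC3, gave 12 circRNAs. circRNA_08751, of exons 10 to 14, had 64.4, 56.2 and 62.2 normalized counts in the 28d pigs, 65.0, 51.8 and 44.6 in the 35d pigs and 121, 87.6 and 91.1 in the 120d pigs. The groups did not overlap, and the highest grown pig was 120d replicate 1. The mean was 99.9 ± 18.4 (SD, n = 3) against 57.4 ± 8.08 (SD, n = 6), a log2 fold change of 0.81 (standard error 0.17, edgeR adjusted p = 0.0232). Without 120d replicate 1 it was 0.65 with an adjusted p of 0.475, without 35d replicate 2 the adjusted p was 0.0687 and without 35d replicate 3 it was 0.0754. It was 0.131 in a fit of the 9 libraries alone, and over all alternatives it reached 0.719. DESeq2 gave an adjusted p of 0.000955, at a fold below 2. The other 11 circRNAs of NCOR1 had TMM log2 fold changes from -0.63 to 0.78, and none of them passed in edgeR with TMM. circRNA_08756, of exons 11 to 15, had 18.2 against 10.6 normalized counts, and circRNA_08752, of exons 10 to 15, had 38.9 against 31.4. Per clean read both rose, with log2 fold changes of 1.57 and 1.11 (edgeR adjusted p = 0.00386 and 0.00942). The circRNAs of exons 2 to 4, 2 to 5 and 2 to 6 had values of -0.51, -0.54 and -0.31, and that of exons 2 to 3 had 0.53. A test for a shift among the circRNAs of NCOR1 gave an unadjusted p of 0.0265 and an adjusted p of 0.995 over 612 host genes. At 180d circRNA_08751 had 76.4 ± 4.02 (SD, n = 3), and 180d against 14d and 21d gave 0.18 in log2 (edgeR adjusted p = 0.688).

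ALMS1, a centrosome and basal body protein, held the circRNA that fell. circRNA_24166, of exons 18 to 22, was listed at 3, 4 and 6 reads in the 28d pigs, at 8, 4 and 4 reads in the 35d pigs and at 0 in each library of 120d although those libraries were deeper. It was the 1 circRNA of 3000 listed at 0 in all 3 libraries of 120d, and 0 circRNAs were listed at 0 in all 6 younger ones. The table lists no count of 1, so that a listed 0 can hide 1 read. If each library held 0 or 1 read, up to 7 reads over the 3 libraries are allowed at 95%, and the level at 120d was then at least 4.01-fold lower than the mean of 4.75 normalized counts in the younger pigs. This limit covers the counting error at 120d only. It takes the younger mean, which rests on 29 reads, as fixed, and makes no allowance for picking this circRNA out of 3000. The adjusted p was 0.0396 by edgeR, with a mean too low to enter the rule for named circRNAs. It was under 0.05 in 6 of the 20 alternatives that gave one, clean reads included, and reached 0.922, and DESeq2 gave no adjusted p for it. The other 6 circRNAs of ALMS1 had TMM log2 fold changes from -1.03 to 0.19, and none passed in edgeR with TMM or per clean read. At 180d the mean of circRNA_24166 was 1.47 ± 1.27 normalized counts (SD, n = 3).

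**Figure D3:**
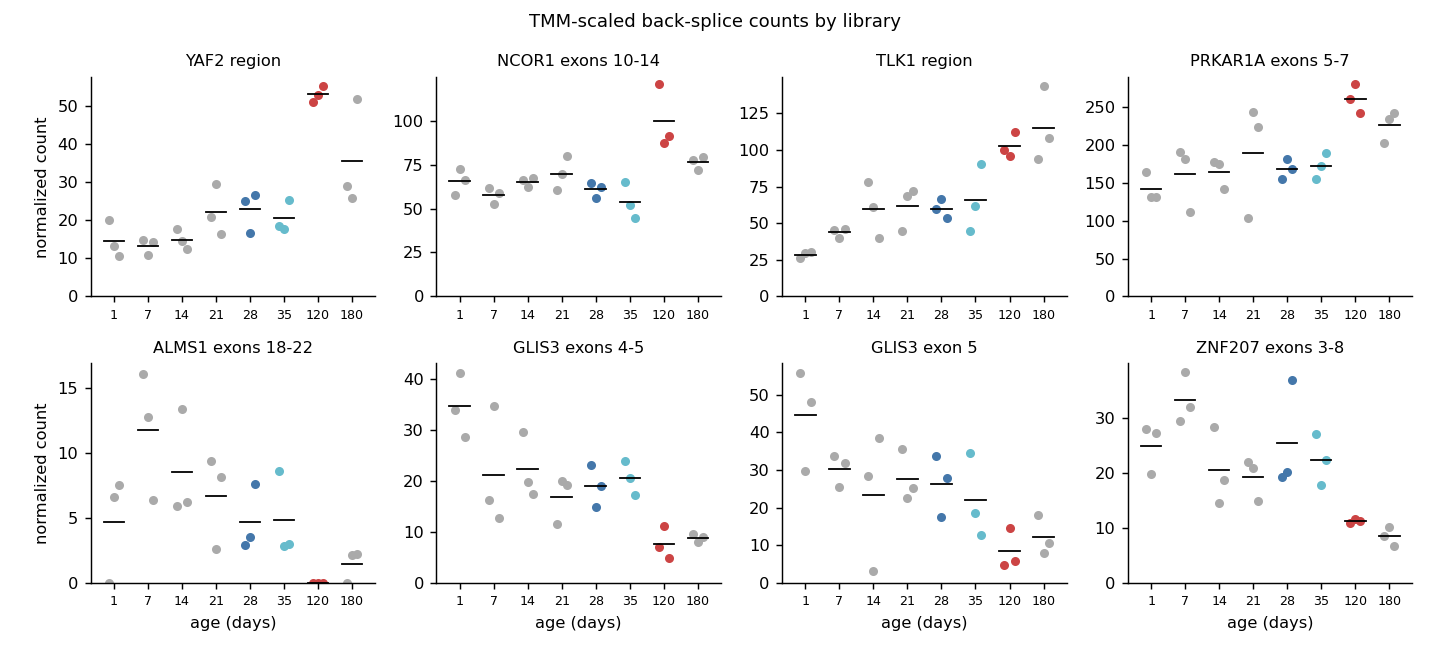
TMM-scaled back-splice counts (y axes, from 0) of 8 circRNAs by age in days (x axes) in all 24 libraries; points are pigs, horizontal lines are stage means, and 28d, 35d and 120d are coloured. The YAF2 and NCOR1 circRNAs stand higher at 120d than in all 6 pigs of 28d and 35d, and the ALMS1 circRNA is at 0 there.

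GLIS3 was the host gene that fell on the TMM scale. It encodes a Krüppel-like zinc finger transcription factor best known from pancreatic islets, thyroid and kidney. With reads summed over its 2 circRNAs, it had 56.6, 32.5 and 47.7 normalized counts in the 28d pigs, 58.6, 38.4 and 29.3 in the 35d pigs and 11.3, 24.7 and 10.2 in the 120d pigs. Each grown pig lay below each younger one. The log2 fold change was -1.51 (standard error 0.28, edgeR adjusted p = 0.00312 over 1671 host genes), and it was the 1 host gene that passed, or 0.0598%. Per clean read the log2 fold change was -0.69 (standard error 0.31, edgeR adjusted p = 0.0761). The fall of GLIS3 thus passed as a share and not per clean read, which leaves its level per clean read unsettled. The adjusted p was 0.194 when 120d replicate 1 was left out and 0.0834 when 120d replicate 3 was. Singly, circRNA_03546 of exons 4 to 5 had 19.8 ± 3.44 normalized counts in the younger pigs (SD, n = 6) and 7.64 ± 3.13 at 120d (SD, n = 3), with an adjusted p of 0.1 by edgeR and 0.00783 by DESeq2. circRNA_03547 of exon 5 had 24.1 ± 9.20 (SD, n = 6) and 8.34 ± 5.36 (SD, n = 3), with an edgeR adjusted p of 0.341. Relative to their host gene the log2 change was 0.06 for circRNA_03546 and -0.04 for circRNA_03547 (edgeR test for a shift between them, unadjusted p = 0.79), and the interval of that change was not computed. At 180d against 14d and 21d the host sum of GLIS3 stood lower by -1.14 in log2 (edgeR adjusted p = 0.00671).

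The circRNAs next in rank did not pass on the TMM scale and are given by their values. Of all 3000, the 3 libraries of 120d lay above all 6 younger ones for 98, or 3.27%, and below them for 55, or 1.83%. Among the well measured circRNAs, the 12 of smallest p in each direction included some from genes of the centrosome, of signalling and of RNA binding. These were not the ones with the largest fold changes, and whether such genes were more frequent there than among all hosts was not tested.

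CNTRL circRNA_04163, from the centrosome protein centriolin, had 17.3, 14.0 and 21.6 normalized counts in the 28d pigs, 23.8, 24.1 and 3.72 in the 35d pigs and 36.7, 40.0 and 31.5 in the 120d pigs. Its groups did not overlap, and 35d replicate 3 was far lower than the other younger pigs (log2 fold change 1.07, standard error 0.29, edgeR adjusted p = 0.17). CEP63, needed for centriole duplication, gave 4 circRNAs that return to the same exon start, and all had values above 0, from 0.52 to 1.38. Its host sum was 172 to 201 in the younger libraries and 277 to 281 at 120d, a narrow range in the grown pigs (0.56, standard error 0.14, edgeR adjusted p = 0.13). It passed by DESeq2 (adjusted p = 0.00274) and in a fit with 28d and 35d as 1 group of 6 (adjusted p = 0.0262), in both cases at a fold below 2.

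PRKAR1A circRNA_07325, from the regulatory subunit of protein kinase A, rose per clean read and was among the most abundant circRNAs. It had 155, 182 and 169 normalized counts in the 28d pigs, 156, 173 and 190 in the 35d pigs and 261, 281 and 243 in the 120d pigs. The groups did not overlap (TMM log2 fold change 0.61, edgeR adjusted p = 0.17; per clean read 1.40, adjusted p = 0.000491). PTBP3 circRNA_04069, from a splicing regulator of the polypyrimidine tract binding family, had 83.9 ± 10.7 normalized counts at 120d (SD, n = 3) against 54.5 ± 9.55 (SD, n = 6). Its groups did not overlap, with a TMM log2 fold change of 0.61 (edgeR adjusted p = 0.336).

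TLK1, a kinase of chromatin assembly factors, is host to several junctions. circRNA_16050, inside the gene with 1 end at an exon, had 102 ± 8.42 normalized counts at 120d (SD, n = 3) and 62.7 ± 15.7 in the younger pigs (SD, n = 6), without overlap. circRNA_16051 had a mean of 52.0 against 21.6, also without overlap, and was listed at 0 in 35d replicate 2. The most abundant one, circRNA_16048, had 275 ± 61.4 against 213 ± 69.5. MINDY3 circRNA_05361, from a deubiquitinase, had 75 against 47.1, with 65.4 in its lowest grown and in its highest younger library. UGP2 circRNA_24379 and SNRK circRNA_09345 had their lowest means of the 3 stages at 28d, with 4.06 and 4.89 in the 28d pigs, 14.6 and 10.6 in the 35d pigs and 18.6 and 16.8 in the 120d pigs.

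Among the lower values, BIVM circRNA_07071 ran from 7.02 to 36.5 normalized counts in the younger pigs, with a median of 14.4, and from 2.32 to 5.65 at 120d. The wide spread at 28d and 35d goes with a log2 fold change of -1.94 (standard error 0.51) and an edgeR adjusted p of 0.162. ZNF207 circRNA_08311, from a kinetochore and spindle protein, had 10.8 to 11.6 at 120d and 17.7 to 36.8, with a median of 21.2, in the younger pigs, without overlap. It passed by DESeq2 (log2 fold change -1.12, adjusted p = 0.0304) and not by edgeR (-1.06, adjusted p = 0.184). Per clean read its value was -0.24 (standard error 0.35, edgeR adjusted p = 0.604), which leaves the level per clean read unsettled.

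IGF1R circRNA_02314 is the whole exon 2 of the receptor for insulin-like growth factor. It had 61.5, 47.4 and 50.8 normalized counts in the 28d pigs, 33.6, 39.7 and 34.2 in the 35d pigs and 27.3, 20.9 and 32.0 in the 120d pigs. The 35d pigs lay between the others, and the fold change was -0.99 against 28d and -0.42 against 35d in log2, and 0.11 per clean read against both. DTL circRNA_38617, from a substrate receptor of the CUL4 ubiquitin ligase in S phase, had 12.5 to 35.1 in the younger pigs, with a median of 19.2, and 8.0, 6.96 and 17.0 at 120d, with overlap. The remaining falls of the rule came from USP10, SBSPON, HIPK2, SLC7A1, DUSP16 and S100PBP, with log2 fold changes from -1.26 to -0.48 and edgeR adjusted p values from 0.256 to 0.493. Of the 12 falls, 10 stayed below 0 per clean read and 0 passed there (edgeR adjusted p from 0.112 to 0.792).

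Against each stage singly, 120d against 28d and 120d against 35d each gave 0 calls of 3000 by edgeR with TMM (200 and 133 at an unadjusted p under 0.05, or 6.67% and 4.43%), and 5 and 2 by DESeq2. Both comparisons use the same 120d libraries. By DESeq2 the 5 against 28d were circRNAs of UGP2 (higher) and of IGF1R, ALMS1, TFRC and CHODL (lower), and the 2 against 35d were circRNA_28982 inside YAF2 (higher) and circRNA_24166 of ALMS1 (lower). These genes are named because of their small number, after their values were seen. Per clean read 437 rose against 28d, or 14.6%, and 6 rose against 35d, or 0.2%. Among the 6 were circRNAs of NCOR1, CNTRL and CEP63 and the one inside YAF2, with log2 fold changes of 1.57, 1.74, 1.62 and 2.0. 35d against 28d gave 0 calls by edgeR (94 at an unadjusted p under 0.05, or 3.13%) and 0 by DESeq2, with the smallest p for UGP2 circRNA_24379, ADAMTS7 circRNA_33193 and circRNA_38940 in SLC9A7.

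The mix of circRNAs from 1 host gene was tested in the 612 host genes with 2 or more. In edgeR's test 0 genes passed (21 at an unadjusted p under 0.05, or 3.43%), and no other tool was run. In simulated data the same test passed 26 of 59 host genes with a circRNA changed by 2 in log2, so shifts could be missed. Among the smallest p values were those of ATF7IP, ALMS1, PPP1R12A, TLK1 and AIDA. In ATF7IP, a partner of the histone methyltransferase SETDB1, circRNA_28634 had 5.83 ± 1.13 at 120d (SD, n = 3) against 11.7 ± 2.62 (SD, n = 6) and circRNA_28642 had 40.6 ± 5.21 against 26.9 ± 6.13. Both pairs of groups were without overlap and in opposite directions (unadjusted p = 0.00123, adjusted p = 0.707 by edgeR). In PPP1R12A, the targeting subunit of myosin phosphatase, circRNA_29453 had 12.2 ± 5.01 against 2.92 ± 2.46 and circRNA_29432 had 6.59 ± 0.60 against 6.54 ± 4.2.

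The gene lists describe which cells and processes the host genes belong to. The table holds no linear transcripts, so the usual spleen markers could be read only through genes that give circRNAs, and 5 of 53 T and NK cell genes, 6 of 38 B and plasma cell genes and 2 of 32 macrophage and myeloid genes were measured. The megakaryocyte, stem cell, fat cell and pancreas lists had 0 measured members, so those cells were not assessed. No member of any list passed after adjustment by edgeR with TMM, and the background was 3.23% of host genes higher and 3.77% lower at an unadjusted p under 0.05. The share of all host genes whose groups did not overlap was not computed, so a member without overlap has no background beside it.

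T and NK cell host genes had a median log2 fold change of 0.29 (5 genes, against 0.02 over 1671 host genes). CD96, a receptor of T and NK cells, had 40.4 to 46.0 normalized counts at 120d and 16.7 to 38.4 in the younger pigs, without overlap (0.91, edgeR adjusted p = 0.316). FYB, an adaptor of T cell receptor signalling, had 30.7 to 52.0 against 18.4 to 27.1, also without overlap (0.84, adjusted p = 0.292). The 5 genes together ran from 111 to 123 at 120d and from 60.8 to 99.1 in the younger pigs, and 2 of the 5, LEF1 among them, had fold changes below 0. In the myeloid list, CTSS, the lysosomal protease cathepsin S, had 44.2 to 67.3 against 18.4 to 60.6. B and plasma cell genes had a median of 0.04, with sums of 123 to 162 at 120d and 95.9 to 186 before. EZH2, the measured gene of the germinal centre list, was at -0.19. The erythroid list had a median of -0.69 over 3 genes, with sums of 66.3 to 73.3 at 120d and 60.4 to 98.5 before, and TFRC, the transferrin receptor, was at -0.97 (5.41 to 10.1 against 3.67 to 37.4). EPB41, a protein of the red cell membrane skeleton, held most reads of that list and was at 0.11 (60.2 to 62.2 against 49.0 to 63.3), while ABCB10, which gave the median, had 0 to 2.81 against 0 to 7.60. The part of these cell types in the results above was not tested.

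Of the cell cycle host genes, 19 of 24 had log2 fold changes below 0 with TMM, against 801 of all 1671. Their median was -0.32, but per clean read the median was 0.56, below the 0.86 of all host genes. An unadjusted p under 0.05 was met by 5 of the 24, all lower, and 0 passed after adjustment in edgeR. The 4 of smallest p were DTL (-1.0), DIAPH3 (-1.47), BUB1 (-1.29) and KIF11 (-1.02), which act in replication licensing, in cytokinesis, at the spindle checkpoint and in the spindle. Per clean read 1 of 24 rose past the adjusted p, against 32.3% of all host genes. Passing depends on counts as well, and DIAPH3, BUB1 and KIF11 had means of 6.57, 7.3 and 8.08 normalized counts in the younger pigs, each from 1 circRNA. The list as a sum overlapped between the groups, with 259 to 342 normalized counts at 120d and 266 to 526 in the younger pigs.

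Chromatin regulators were the largest list, with 44 of 74 genes measured, and had a median of 0.11. Their sum was nearly level, from 1710 to 1750 at 120d and from 1560 to 1750 before. Members went both ways. NSD2, a histone H3 lysine 36 methyltransferase, had 17.6 to 24.1 against 25.1 to 61.9, without overlap (-0.94, edgeR adjusted p = 0.13). SETD2, which methylates the same lysine, was at -0.53, and KMT2E and NCOR1 were at 0.38 and 0.33. Per clean read 21 of 44 rose past the adjusted p, where 32.3% of all host genes did. This also depends on counts, and NCOR1 and KMT2E had means of 171 and 86.5 normalized counts in the younger pigs. NSD2 passed by DESeq2 (adjusted p = 0.018, at a fold below 2).

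Interferon and nucleic acid sensing genes had a median of -0.38 over 7 genes, of which 0 met an unadjusted p under 0.05 (0 after adjustment in edgeR; per clean read their median was 0.46). Genes of circRNA formation and turnover had a median of 0.24 over 8, with PTBP3 at 0.48 and XRN2, a nuclear exonuclease, at -0.82. Hosts of widely conserved circRNAs had a median of -0.26 over 10, with HIPK2 at -1.05 and FOXO3 at -1.54 among the lower ones and FBXW7 at 0.31 (per clean read the median was 0.61). The stromal and endothelial list had 2 measured genes and a median of 0.14. FLT1, a receptor for vascular endothelial growth factor, was at -1.05 (0.902 to 2.81 normalized counts at 120d and 0 to 5.58 before). NOTCH3, a receptor of vascular mural cells, had 6.75 to 29.7 at 120d and 3.26 to 10.3 before, with 1 high library, 120d replicate 3. IGF2BP3, a fetal RNA-binding protein, was at -0.76 (5.57 to 14.6 against 9.68 to 23.7).

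**Figure D4:**
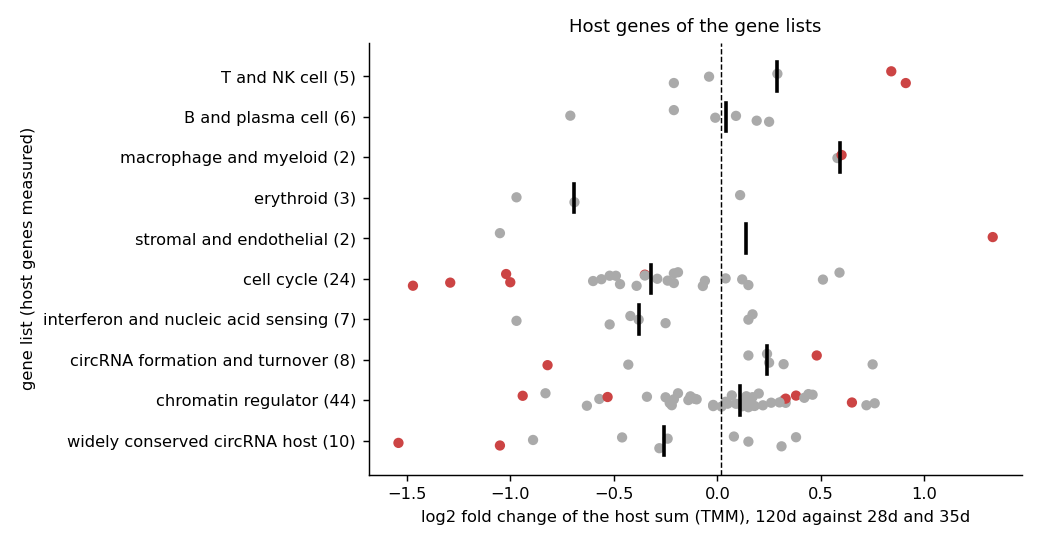
Log2 fold change of the summed circRNA reads of each host gene (x axis, TMM scale, 120d against 28d and 35d) for the lists with 2 or more measured genes (y axis, number measured in brackets); red points met an unadjusted p under 0.05, black bars are list medians and the dashed line is the median of all 1671 host genes at 0.02. The cell cycle list lies mostly to the left of the line, with a median of -0.32, and none of its points passed after adjustment.

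Short circRNAs had higher fold changes than long ones. Among the 981 circRNAs with a mean of at least 10 normalized counts and a known exon chain, the log2 fold change had a Spearman correlation of -0.26 with exonic length, given as a description across circRNAs that share the same libraries. The circRNAs of 70 to 317 nt had a median of 0.23, and those of 637 to 4036 nt, the longest of 4 classes of about equal size, had a median of -0.04. On the clean read scale both medians were above 0, at 1.03 and 0.756. The correlation was -0.23 against 28d alone, -0.24 against 35d alone, -0.18 within libraries of at least 0.96 valid bases and -0.20 within those under 0.96 (against 35d). Between 35d and 28d it was 0.0051. In the pigs of 180d against 14d and 21d, which are not part of this comparison, it was -0.46.

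Each library of 120d had more of the shortest class relative to the longest than each library of the younger pigs. The difference of the class medians was 0.0747, 0.187 and 0.276 in log2 at 120d and ran from -0.271 to 0.0413 in the other 6. GC content of the circRNA had a weaker correlation of -0.19, which was -0.083 within libraries of at least 0.96 valid bases and -0.15 within those under 0.96, against 35d (length and GC content of a circRNA correlated at -0.06), and GC content of the libraries was 0.4775 to 0.4776 at 120d and 0.4504 to 0.4836 in the younger pigs. The share of valid bases was under 0.96 in the 120d libraries at 0.187 and 0.276 and in the 35d libraries at -0.0631 and -0.0225, and its part in this pattern was not tested.

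**Figure D5:**
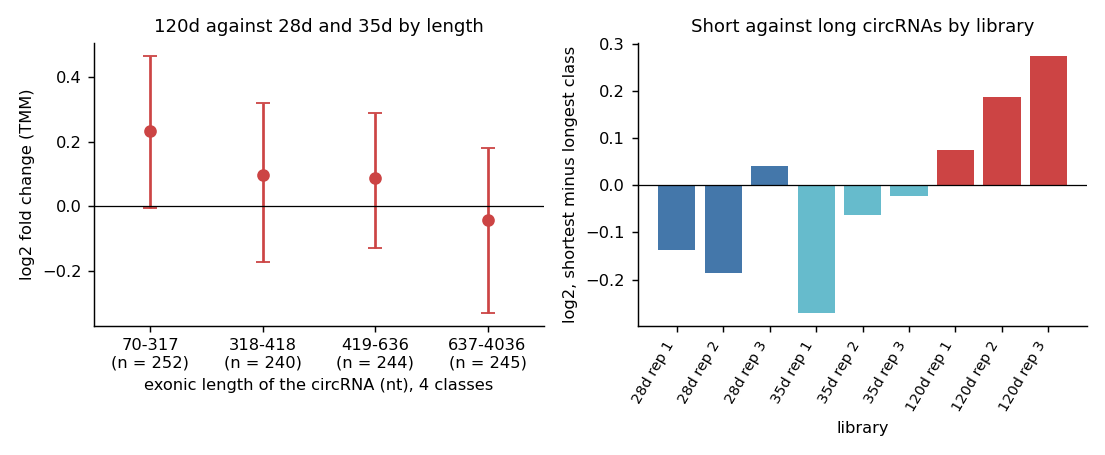
Median log2 fold change on the TMM scale (left y axis, bars give the interquartile range of circRNAs) by class of exonic length in nt (x axis), and, for each library (right), the median of the shortest minus that of the longest class, in log2 relative to the mean of the 9 libraries. The shortest class has the highest median, 0.23, and the bars of 120d reach from 0.0747 to 0.276.

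The number of circRNAs detected followed depth. As deposited, 2950 to 2975 of 3000 had reads at 120d and 2668 to 2935 in the younger pigs. After every library was thinned to 29749 reads, 2670, 2640 and 2640 were left at 120d and 2668 to 2722 in the younger pigs (2650 ± 17.3, n = 3, against 2698 ± 24.1, n = 6; exact permutation p = 0.0714, two-sided). The order thus turned when depth was made equal, and the thinned difference of -47.7 circRNAs did not pass.

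The libraries of 120d were the most alike, with correlations of log2 CPM of 0.832 to 0.845 among them, against 0.669 to 0.720 within 28d and 0.732 to 0.789 within 35d. Depth was 29749 to 56086 back-splice reads in the younger libraries and 71092 to 87867 in the 120d libraries. 28d replicate 3 stood apart on the first principal component, at 40.7 against -8.01 to 0.69, and 35d replicate 1 on the second. Without both libraries 1 circRNA was called with TMM, circRNA_28982 inside YAF2 (log2 fold change 1.32, edgeR adjusted p = 0.0201), and 123 rose per clean read. GLIS3 then had a log2 fold change of -1.35 (edgeR adjusted p = 0.0493). circRNA_21767 of PAPD4, which the study followed up, had 13.4 ± 3.89 normalized counts at 120d (SD, n = 3) and 14.7 ± 3.25 before (SD, n = 6), a log2 fold change of -0.11 (95% interval -0.88 to 0.65).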

How the data were processed

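Spleen RNA of 24 Meishan pigs was sequenced after ribosomal RNA depletion, and the authors deposited a table of counts of back-splice reads for 3000 circRNAs, aligned to Sscrofa11.1, not normalized and with no count of 1. The submitters' processing notes name FastQC, cutadapt and TopHat2. The sample labels and the methods describe different kits, and only the methods name a removal of linear RNA by RNase R. Which was used was not settled. Clean reads and the share of valid bases per library were taken from the study's sequencing summary.

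Counts of all 24 libraries were fitted with 1 mean per stage in edgeR 4.0.16 (R 4.3.3, TMM, quasi-likelihood, two-sided), and 120d was contrasted with the mean of 28d and 35d. A call required a fold of 2 and a Benjamini-Hochberg adjusted p below 0.05. List members and isoforms needed the adjusted p only. No filter was applied. Reads were also summed per host gene, and isoforms were tested with edgeR's diffSpliceDGE. DESeq2 1.42.0 was an alternative, beside other scalings, filterByExpr, a replicate block, valid bases and GC terms, thinning and leaving out each library. The step was tested on simulated data with changes at 120d. Of 100 circRNAs changed by 1 in log2, 15 were called, and of 100 changed by 2, 65 were. Of 2800 unchanged ones 2 were called, so many true changes of these sizes would be missed. The biological coefficient of variation was 0.300.

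Named circRNAs were the 12 largest rises and falls among calls with a mean of at least 10 and no overlap, filled up by smallest p. ALMS1, CHODL and TFRC were added after their values were seen, as were the other circRNAs of named hosts. Named host genes were the 5 of smallest p in each direction and 4 per list, and isoforms those of 6 genes. Members and lists were chosen with earlier results of these data known. FYB, DDX58 and FAM129C were matched as older names of FYB1, RIGI and NIBAN3. Results of some items chosen by these rules are not reported here.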

Additional observations from a re-analysis of the deposited data

Results flagged for a closer look

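Among the 6 libraries of 28d and 35d, the highest or lowest value was tested for its distance from the rest in 74 sets of values (Dixon's gap, critical value 0.625 for 6 libraries), and 3 were far from the others, where chance gives about 1 in 20. DTL had 35.1 normalized counts of circRNA_38617 in 28d replicate 2, against 12.5 to 20.6 in the other 5 libraries. Its host sum of 35.2 in that library rests on the same reads. DDX58, which encodes the RNA sensor RIG-I, had a host sum of 25.8 in 28d replicate 3, against 3.67 to 6.71 in the other 5, and 3.61 to 3.94 at 120d.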

How the results depend on the processing

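The count of 2 DE circRNAs on the TMM scale was 3 by DESeq2 and 2 with DESeq2 size factors. It was 1 with the 9 libraries only, with 28d and 35d as 1 group of 6, with the library GC term, with the valid bases term and without 28d replicate 3 and 35d replicate 1 (added after seeing the data). It was 4 with filterByExpr or table totals, 0 with thinned counts or at least 0.96 valid bases, 438 with clean reads, and 0 (without 120d replicate 1) to 5 (without 28d replicate 2) when leaving out 1 library. Against 28d the count of 0 became 5 by DESeq2, 439 with clean reads, 3 with the library GC term or table totals, 1 with thinned counts or the valid bases term, and 0 to 4 without 1 library. Against 35d it became 2 by DESeq2 and 6 with clean reads, and was 0 without any 1 library. 35d against 28d gave 0 to 1, isoforms gave 0 to 1, and host genes gave 0 to 2 without 1 library, 0 with the 9 libraries only and 360 with clean reads. The 438 called per clean read became 94 with at least 0.96 valid bases, 246 with the valid bases term, 123 without 28d replicate 3 and 35d replicate 1, 0 under 0.96 (120d against 35d), and 96 to 515 without 1 library. The RPM ratio of 1.83 was 1.45 under 0.96 valid bases (exact p = 0.333), 2.07 against 28d and 1.64 against 35d (exact p = 0.1 each), and 1.69 to 1.97 without 1 library (exact p up to 0.0714, the smallest for 2 against 6). The ratio of circRNAs detected, 0.982 after thinning, reversed to 1.04 on counts as deposited and was 0.979 to 0.984 without 1 library. The cause of these differences was not tested.

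Deviations of same-numbered libraries correlated at -0.0274 to 0.104 over 9 pairs, which shows no pairing of pigs by replicate number and cannot exclude one. With the replicate block 1 circRNA was called, circRNA_28982, and circRNA_24166 of ALMS1 had an adjusted p of 0.0675. The block gave 421 calls per clean read, 1 host gene and 0 isoforms, and 0 calls in the comparisons with single stages. The fit to libraries under 0.96 alone was not run for both younger stages together, as 28d has none.

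For single named circRNAs and host genes, 1410 of the alternative values moved by less than their standard error or kept their call, 98 moved more, 43 passed newly, 27 of them with clean reads, and 30 lost a call. Of 41 values below 0 with TMM, 17 were above 0 with clean reads. Depth limits single circRNAs, of which 1967 averaged under 10 normalized counts.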

Other observations

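In 28d replicate 3 several circRNAs stood far above the other libraries. SOX6 circRNA_20897, from a transcription factor of erythroid cells and other lineages, had 31.7 normalized counts against 0 to 14.9 in the other 8 libraries, VRK1 circRNA_34450 had 17.8 against 0 to 6.5 and SMC4 circRNA_10741, from a condensin subunit, had 14.0 against 0 to 3.55. These 3 were chosen after their values were seen. With 29749 back-splice reads, 28d replicate 3 had the lowest depth of the 9 libraries. Circles that stood out in other libraries are not given here, so this cannot be called a trait of that library.

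circRNA_30386, on chromosome 6 over several annotated genes of 1 cluster, varied widely among the younger pigs. It had 6.73, 0 and 198 normalized counts in the 28d pigs, 140, 38.3 and 0 in the 35d pigs and 3.30, 6.38 and 6.78 in the 120d pigs. Its log2 fold change of -3.45 had a standard error of 1.95 (edgeR adjusted p = 0.9).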
